A study of Mus musculus with 2 samples.

Results

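The 10 genes described here supply and regulate peptide presentation by major histocompatibility complex (MHC) class I: the class I light chain gene B2m, the heavy chain genes H2-K1 and H2-D1, the peptide transporter genes Tap1 and Tap2, the tapasin gene Tapbp, the immunoproteasome genes Psmb8, Psmb9 and Psmb10, and the transactivator gene Nlrc5. They were chosen by name, as every gene probe of the arrays that carries 1 of these 10 gene names, out of 34797 names on the array. The match gave 13 probes in 32 spots, and 12 of the 13 probes were well above background on both arrays. RNA was labelled from beta cells of C57BL/6J mice at 6 months of age that had been fed a high-fat diet. The wild-type sample, CSE-WT(HFD+), is the control, and the other sample, CSE-KO(HFD+), came from a CSE knockout, CSE being the hydrogen sulfide-producing enzyme cystathionine gamma-lyase encoded by Cth. Strain, age, diet and cell type were the same in both groups, and how many animals were pooled and which cells the knockout covered are not given in the sources used here. Each genotype had 1 array, so no test was possible, no value below has a replicate check, and all differences (CSE-KO minus CSE-WT) describe these 2 arrays.

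Class I molecules display short peptides from proteins made inside the cell to CD8 T cells. The proteasome cuts proteins into peptides, and its immunoproteasome form carries the subunits of Psmb8, Psmb9 and Psmb10 in place of those of Psmb5, Psmb6 and Psmb7. The TAP1-TAP2 transporter moves peptides into the endoplasmic reticulum, where tapasin and chaperones load them onto a heavy chain paired with beta-2 microglobulin. Interferons raise transcription of this set through IRF1 and NLRC5, the latter of which joins the RFX, CREB/ATF and NF-Y factors on the SXY module of class I promoters. In islets, class I display on beta cells is known as the step that exposes them to CD8 T cells in autoimmune diabetes.

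The promoters of the 3 genes of the class I molecule itself are printed because they share a spaced pair of boxes. RefSeq windows (GRCm38.p6), running from 250 bases before to 50 bases after the annotated start, were held for 8 of the 10 members, Tap2 and Nlrc5 being the exceptions. The letters TGACG (the core of the X2 box that CREB/ATF factors bind), then 20 bases of any kind, then ATTGG (the Y box of NF-Y) were searched on both strands. This spaced pair was found in H2-K1, H2-D1 and B2m and in none of the other 5 members, against 31 of all 32851 windows (0.0944%). Those windows belong to 27 genes, these 3 included. No other spacing was searched, and 20 bases is the spacing of these 3 promoters, so the share is not a test of the members. Capitals mark TGACG and ATTGG. In B2m they also mark a strict form of the interferon-stimulated response element (GAAA, 2 bases of any kind, GAAA), which starts at -139 from the B2m start. All 3 stretches are 102 bases long and are aligned on TGACG.
H2-K1, chr17:34000354-34000455, minus strand: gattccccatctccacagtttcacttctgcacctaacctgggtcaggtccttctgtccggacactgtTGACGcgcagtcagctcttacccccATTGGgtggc
H2-D1, chr17:35262926-35263027, plus strand: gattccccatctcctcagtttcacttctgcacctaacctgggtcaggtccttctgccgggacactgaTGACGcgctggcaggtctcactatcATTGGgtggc
B2m, chr2:122147542-122147643, plus strand: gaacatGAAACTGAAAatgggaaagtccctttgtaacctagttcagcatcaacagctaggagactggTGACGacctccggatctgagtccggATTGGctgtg
The H2-K1 and H2-D1 stretches were identical at 91 of 102 bases, whereas B2m matched H2-K1 at 46. Among the 8 members with a window, this strict form of the interferon-stimulated response element was found in B2m alone, and 3.44% of all windows held it. Looser forms of the element were not searched, so the other members are not shown to lack it. The gamma-activated site letters TTCNNNGAA, which are their own reverse complement, were found in Psmb8 at -97 and in 8.30% of all windows. TGACG by itself was found in 5 of the 8 members and 20.8% of windows, and CCAAT, the reverse complement of ATTGG, in 6 of 8 and 37.4%, and these counts include the boxes of the spaced pair. Such matches describe letters in the windows and do not show binding.

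Tap1 and Psmb9 point away from each other on chromosome 17 and have 225 bases between their annotated starts. That stretch (chr17:34187331-34187555, GRCm38.p6, plus strand, read toward Tap1) is printed because it holds the upstream sequence of both genes, with CCAAT and TGACG in capitals.
Tap1-Psmb9: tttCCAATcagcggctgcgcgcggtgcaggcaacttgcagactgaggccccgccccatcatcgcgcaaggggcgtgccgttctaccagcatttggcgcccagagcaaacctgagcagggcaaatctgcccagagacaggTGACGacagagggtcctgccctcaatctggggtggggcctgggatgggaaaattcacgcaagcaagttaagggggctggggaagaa
Neither the strict form of the interferon-stimulated response element nor TTCNNNGAA was found in the windows of these genes.

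A few facts of the arrays bear on all values. An array's intensities were put on a log2 scale and its 75th percentile over gene probes (519 units for CSE-WT, 540 for CSE-KO) was subtracted, which gives the scaled level. Probes that cleared background on the 2 arrays are called measured, and a gene took the brightest of these, which gave 22160 measured genes with a median difference of -0.0060. Spot SD means the error of a difference expected from spot-to-spot variation at that level, and it shrinks as a probe has more spots. It was taken from the measured ones among 399 probes printed 10 times, and its median over measured genes was 0.084 log2 units. It covers no variation between animals. Both Cth probes, 2 in number, failed the background limit on CSE-WT and on CSE-KO (13.5 and 12.8 units on CSE-WT, 3.15 and 3.68 on CSE-KO), and where they lie relative to the deleted part is not known here. Beta-cell markers were measured for 8 of 8 genes, with summed scaled intensities of 2405 and 2243 on CSE-WT and CSE-KO. Most of that sum came from Ins1, Ins2 and Iapp, and 4 of the 8 were higher, with a median difference of -0.011. Also measured were 5 of 5 alpha-cell markers (sums of 1148 and 1017, 0 higher, median -0.62). The same held for 6 of 6 acinar markers (783 and 733, 3 higher, median -0.031). Of all measured genes 48.7% were higher. In bulk RNA fewer cells of a type and less RNA per cell cannot be told apart.

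The class I set lay close to equal on the arrays. Of 10 genes 5 were higher and 5 lower in CSE-KO, against 48.7% of all measured genes higher, and their median difference was -0.0055. None was 2-fold higher or lower, calls that 0.718% and 0.884% of measured genes reached. Past 3 times the spot SD, B2m and Tap1 were higher and no member was lower, against 7.51% and 8.53% of all measured genes. The B2m and Tap1 probes were printed 2 and 10 times, which narrows their limit, while 59305 spots covered the 55681 gene probes. The SXY factor gene Rfxap, at about the level of Tap1, had a spot SD of 0.11 against 0.036 for Tap1. A total of 7 of the 10 genes lay within 1 spot SD of 0. By probe, 6 of 12 were higher (49.2% of measured probes), and the second Nlrc5 probe was the one 2-fold higher (0.778% of measured probes), with none 2-fold lower (0.953%). Past 3 times the spot SD, 3 probes were higher (6.82% of measured probes) and none lower (7.74%).

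**Figure D1:**
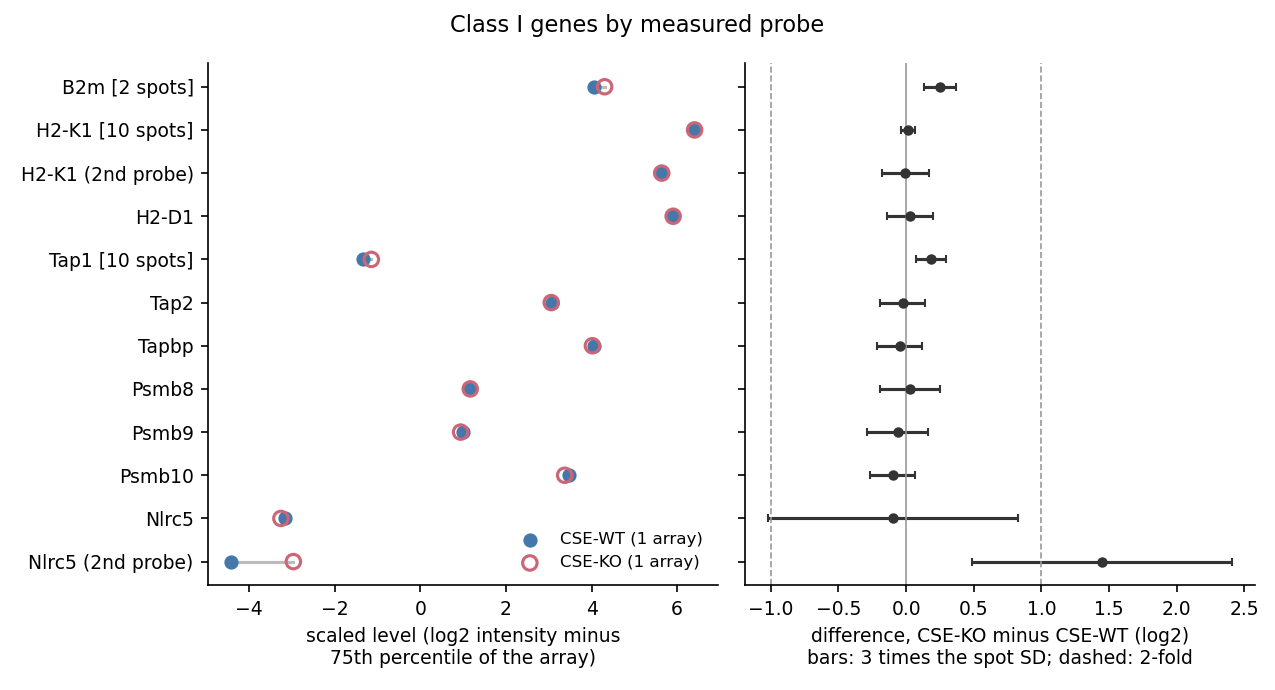
The 12 measured probes of the 10 class I genes, with the scaled level on the CSE-WT array (filled) and the CSE-KO array (open) on the left and the log2 difference with bars of 3 times the spot SD on the right. Most pairs of points coincide, B2m (0.25) and Tap1 (0.18) have bars that clear 0, and the second Nlrc5 probe (1.45) is the one past the dashed 2-fold line.

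B2m, the invariant light chain of every class I molecule, showed the largest difference among the 10 genes when a gene took its brightest probe; with the mean of probes, Nlrc5 (0.68) exceeded it. Its probe (chr2:121978401-121978460, mm9, plus strand) was printed in 2 spots, which read 8491 and 8775 units on CSE-WT and 10581 and 10750 units on CSE-KO. Both CSE-KO spots were above both CSE-WT spots, also after scaling. The difference was 0.25 log2 units, or 1.19-fold higher, at 6.32 times the spot SD of 0.039. It lay between 0.23 and 0.30 over the 11 processing alternatives.

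Tap1, which encodes the first subunit of the peptide transporter, was also higher on the CSE-KO array by a small amount that held across its spots. Its probe lies at chr17:34330854-34330913 (mm9, plus strand), was printed 10 times and is shown because its repeats carry this reading.
Tap1 probe: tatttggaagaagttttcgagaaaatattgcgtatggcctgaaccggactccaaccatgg
On CSE-WT the 10 spots ran from 185 to 220 units with a median of 208, and on CSE-KO from 233 to 255 with a median of 242. On the scaled axis the CSE-WT spots lay between -1.49 and -1.24 and the CSE-KO spots between -1.21 and -1.08, so the ranges did not overlap. Spots of 1 array are repeats of 1 sample and not replicates of a genotype. The mean difference was 0.18 log2 units, or 1.14-fold, at 5.10 times the spot SD of 0.036, and 0.13 to 0.22 over the alternatives.

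**Figure D2:**
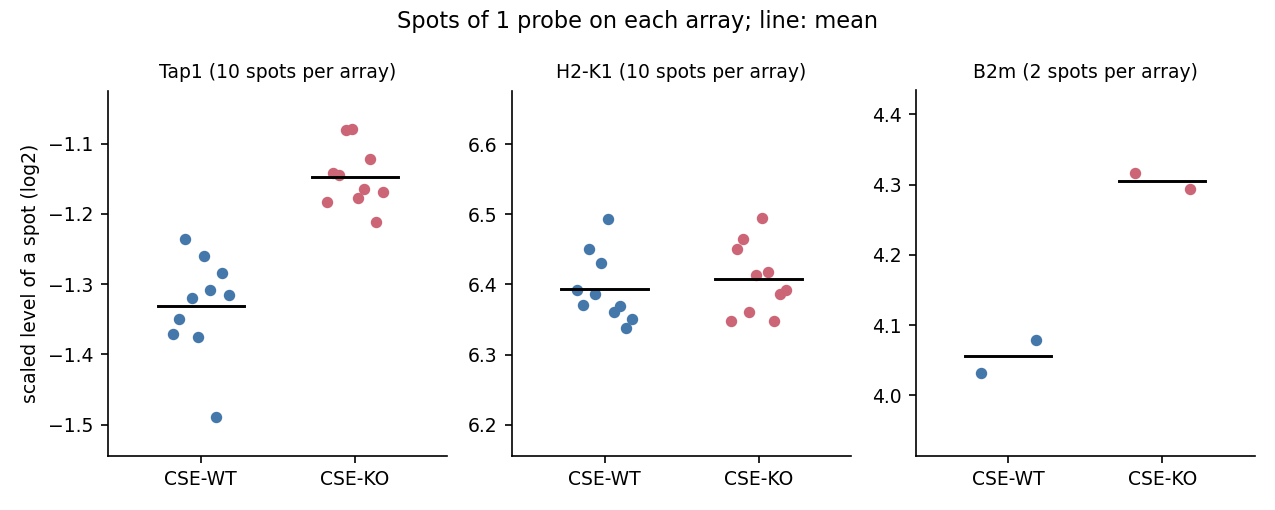
Scaled log2 level of each spot of the probes of Tap1, H2-K1 and B2m that were printed more than 1 time, on the CSE-WT and CSE-KO arrays, with a line at the mean. The spots of Tap1 and B2m separate by array, and those of H2-K1 overlap.

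The heavy chain genes H2-K1 and H2-D1 did not share the B2m reading. The main H2-K1 probe (chr17:34133055-34133114, mm9, minus strand) was also printed 10 times, with spots from 42000 to 46762 units and a median of 43202 on CSE-WT, and from 43939 to 48648 with a median of 45649 on CSE-KO. After scaling the ranges overlapped almost fully, 6.34 to 6.49 against 6.35 to 6.49. The difference was 0.013 log2 units, or 1.01-fold, at 0.740 times the spot SD of 0.018. The second H2-K1 probe (chr17:34133984-34134043) read 25969 and 26900 units and differed by -0.0048. The H2-D1 probe (chr17:35403886-35403945, plus strand) read 30473 units on CSE-WT and 32367 on CSE-KO, a difference of 0.031, at 0.552 times its spot SD. For H2-D1 the sign turned to -0.014 under normexp background correction.

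Class I genes are close relatives in sequence. The second H2-K1 probe shared a run of at least 16 bases with probes of 4 other names on the array, and the longest, 29 bases, was with H2-T23, the gene of the non-classical molecule Qa-1. Both probes are printed because they show how far such readings can be separated. Capitals mark the 39 bases that are identical over the 54 aligned, and the H2-T23 probe begins 6 bases into the H2-K1 probe.
H2-K1 second probe: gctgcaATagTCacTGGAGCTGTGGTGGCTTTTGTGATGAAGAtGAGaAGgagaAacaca
H2-T23 probe: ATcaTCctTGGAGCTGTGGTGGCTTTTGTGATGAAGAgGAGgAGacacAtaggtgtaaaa
The H2-T23 probe read 0.031 log2 units higher in CSE-KO, at 0.539 times its spot SD. The other 3 names, Gm11127, LOC100044874 and a record without a symbol, differed by 0.030, 0.058 and -0.0061. The reading of the second H2-K1 probe is therefore uncertain as to gene, and cross-hybridisation was not tested. The main H2-K1 probe and the H2-D1 probe shared no run of 16 bases with any other probe, and whether they read transcripts of related class I genes was not tested.

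Tap2 and Tapbp, whose products complete the transporter and tether it to the empty class I molecule, were near equal. The Tap2 probe (chr17:34353116-34353175, mm9) read 4396 units on CSE-WT and 4492 on CSE-KO, and after scaling the difference was -0.024 at 0.436 times the spot SD. For Tapbp (chr17:34065963-34066022) the readings were 8701 and 8749 units, with a difference of -0.048 at 0.854 times the spot SD. The sign of Tap2 turned under median scaling (0.010) and under cyclic loess (0.011). Tapbp turned to 0.035 when the median of neighbouring spots was subtracted.

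The immunoproteasome genes did not move with B2m and Tap1. Psmb8 (chr17:34337771-34337830, mm9), the chymotrypsin-like subunit, read 1143 units on CSE-WT and 1209 on CSE-KO, a difference of 0.026 at 0.352 times the spot SD. Psmb9 (chr17:34319174-34319233), which has its start beside that of Tap1 as printed above, read 1039 and 1035 units and differed by -0.062, at 0.817 times the spot SD. The 2 genes of that shared stretch thus gave 0.18 and -0.062. A second Psmb9 probe (chr17:34322762-34322821) gave 3.72 and 3.06 units, below the background limit of both arrays, and gives no difference. Psmb10 (chr8:108459677-108459736, minus strand), the trypsin-like subunit, read 5753 units on CSE-WT and 5585 on CSE-KO and was lower by 1.07-fold (-0.098, at 1.78 times the spot SD). Neighbouring spots of Psmb10 had a median difference of -0.22, and with it subtracted the sign turned to 0.11; the same step turned Psmb8 to -0.042.

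Nlrc5, the transactivator of the class I genes, gave a reading that depended on the probe. Its brightest probe is printed because it sets the gene's value, and it spans 147 bases of the genome (chr8:97030478-97030624, mm9, plus strand) with 60 bases of sequence, as a probe across a splice junction does.
Nlrc5 probe: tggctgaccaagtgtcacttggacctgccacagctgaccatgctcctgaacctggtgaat
It read 57.8 units on CSE-WT and 56.3 on CSE-KO, a difference of -0.094, at 0.304 times the spot SD of 0.31. The second probe (chr8:97051105-97051164), which holds the polyadenylation hexamer AATAAA from its base 31, read 24.3 units on CSE-WT and 68.9 on CSE-KO. That is 1.45 log2 units, or 2.73-fold higher, at 4.53 times its spot SD. Its neighbouring spots had a median difference of -0.25, opposite in sign to the probe. It shared a run of 17 bases with the probe of Serpina3b, which differed by 0.21, and cross-hybridisation was not tested here either. Both probes are dim single spots, the mean over them was 0.68, and these arrays do not settle whether Nlrc5 differed.

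Genes around the 10 members were described from lists chosen with earlier results of these data known. Non-classical (class Ib) H2 genes were measured for 13 of 15 listed, with 10 higher and 3 lower, against 48.7% of all measured genes higher. Of the 13, 7 lay within 1 spot SD of 0. Their median was 0.047, which lay between 0.025 and 0.093 over the alternatives. Past 3 times the spot SD were H2-Q8, which was higher (0.38, 1.30-fold), and H2-Q1, which was lower (-0.18), while H2-T10 (0.14) and H2-T24 (0.11) lay within it. The class I-like genes were lower in 4 of 4, against 11366 of all 22160 measured genes. Their median was -0.12 (-0.16 to -0.067 over the alternatives), and none was past 3 times the spot SD. The 4 genes were Fcgrt (-0.18), the neonatal Fc receptor, Hfe (-0.12), which regulates iron uptake, and the antigen-presenting molecules Mr1 (-0.12) and Cd1d1 (-0.12). Mr1 and Cd1d1 lay within 1 spot SD of 0.

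Peptide loading and proteasome genes were level or slightly lower. Loading and trimming genes were higher in 3 of 8, against 48.7% of all measured genes. Their median was -0.020, whose sign turned with median scaling (0.014) and cyclic loess (0.036). The aminopeptidase genes Lnpep (-0.22) and Erap1 (-0.19), the chaperone calnexin (Canx, -0.14) and Bcap31 (0.16) were within 3 times the spot SD. Constitutive 20S proteasome genes were lower in 12 of 14, against 11366 of all 22160 measured genes. Their median was -0.090, and -0.11 to -0.036 over the alternatives. Psma1 (-0.19) passed 3 times the spot SD, and Psmb5 (-0.14), Psma7 (-0.14) and Psma4 (-0.12) did not. Set beside the immunoproteasome subunits that replace them, Psmb5 differed by -0.14 and Psmb8 by 0.026, Psmb6 by 0.0034 and Psmb9 by -0.062, and Psmb7 by 0.048 and Psmb10 by -0.098. The second Psmb5 probe gave 0.0019 and that of Psma4 -0.0058, so the probes of these genes disagreed. Proteasome activators and assembly factors were lower in 6 of 9, against the same 11366 of 22160 measured genes. Their median was -0.12, which came to -0.049 under normexp and -0.19 with neighbouring spots subtracted. Of these, Psmg1 (-0.21) passed 3 times the spot SD, and Psmg4 (-0.18), Psme3 (-0.14) and Psme4 (0.14) did not.

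Interferon-stimulated genes were higher in CSE-KO while the class I genes were level. Of 28 measured, 25 were higher, with a median of 0.49 and 17 higher by more than 3 times the spot SD, against 48.7% and 7.51% of all measured genes. Past 2-fold were Oas2 (2.64-fold), a sensor of double-stranded RNA, Irf7 (2.18-fold), the master regulator of type I interferon genes, and Mx1 (2.04-fold). The Mx1 probe was dim (31.9 units on CSE-WT and 67.8 on CSE-KO) and lay at 3.20 times its spot SD. Ifit3, which blocks viral RNA translation with its partners, followed at 1.87-fold. On the lower side, 2 genes passed 3 times the spot SD, the guanylate-binding protein gene Gbp2 (-0.41) and the RNA sensor gene Ifih1 (-0.27), whose neighbouring spots had median differences of -0.46 and -0.27. Over the directly adjacent spots alone these medians were -0.85 for Gbp2 and -3.17 for Ifih1. The alternative that left out probes in such nearest-spot patches dropped both genes and kept 26, with a median of 0.50.

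Receptor and signalling genes upstream were mixed. Of 15, 9 were higher and 4 were higher by more than 3 times the spot SD, against 48.7% and 7.51% of all measured genes. The median was 0.15, which came to 0.018 under normexp background correction and 0.055 with neighbouring spots subtracted. Irf9 (1.39-fold), Stat2 (1.19-fold) and the receptor kinase Tyk2 (1.23-fold), parts of the type I interferon route, were higher by more than 3 times the spot SD, as was Jak2 (1.17-fold). Socs1 (0.35), a feedback inhibitor of JAK signalling, was within it. Irf1, a main activator of class I genes downstream of interferon gamma, was lower (-0.23, at 3.91 times the spot SD). Among 7 measured SXY factors 4 were higher, near the share of all measured genes. Their median was 0.15, which came to 0.049 under normexp and 0.059 with the mean of probes. The NF-Y subunit genes Nfya and Nfyc gave 0.41 and 0.27, of which Nfyc passed 3 times the spot SD, while Nfya, Rfxank (-0.15) and Creb1 (0.15, with -0.057 from its second probe) did not. Rfx5 was not measured.

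**Figure D3:**
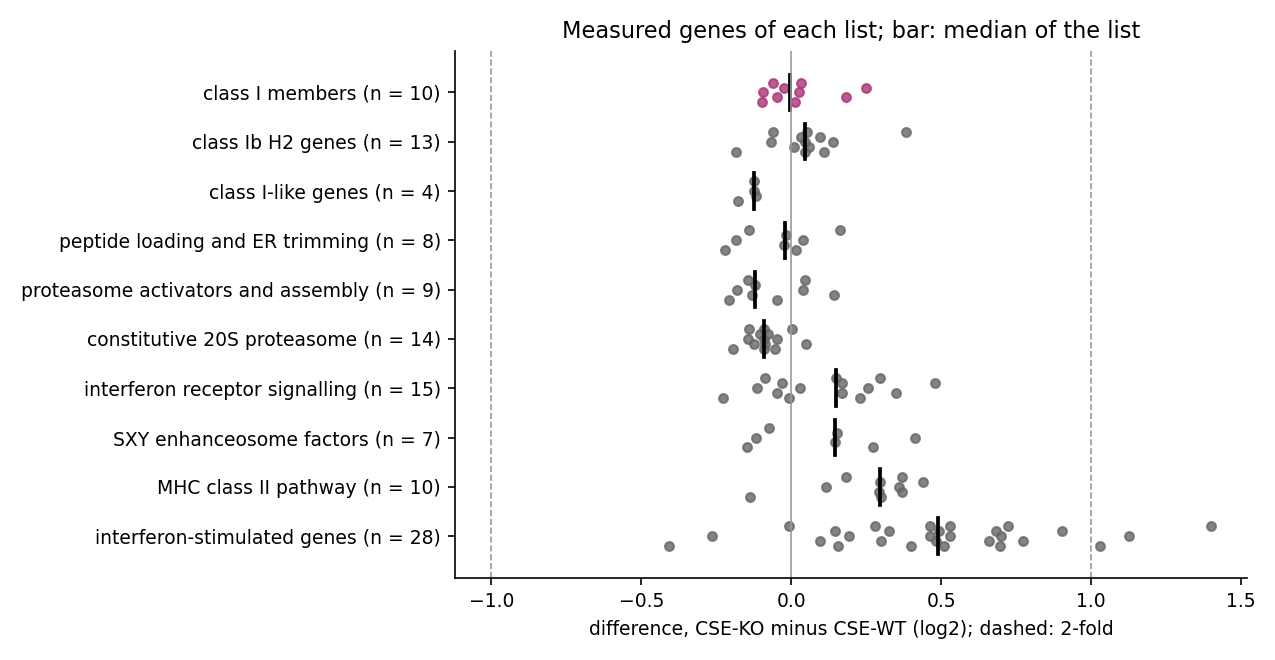
Log2 difference (CSE-KO minus CSE-WT) of each measured gene in the class I set and in 9 lists of related genes, with a bar at each list's median and dashed lines at 2-fold. The class I genes lie around 0, with B2m and Tap1 to the right, while the medians of the class II pathway (0.30) and of interferon-stimulated genes (0.49) lie above 0.

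Genes of the MHC class II pathway, which displays peptides on professional antigen-presenting cells, were higher in 9 of 10 measured, with a median of 0.30, and 7 of them passed 3 times the spot SD, against 48.7% and 7.51% of all measured genes. Cd74, the invariant chain, was 1.29-fold higher (9254 units on CSE-WT and 12423 on CSE-KO), H2-DMa 1.29-fold, H2-Aa 1.28-fold, and H2-Oa, within 3 times the spot SD, gave 0.44. The class II transactivator Ciita was dim and gave -0.14, at 0.358 times the spot SD. None of the class II genes reached 2-fold. The median lay between 0.23 and 0.35 over the alternatives.

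Markers of antigen-presenting cells moved with these lists. Macrophage markers were measured for 12 of 12 and were higher in 10, 8 of them past 3 times the spot SD, again against 48.7% and 7.51% of all measured genes, while the lysozyme gene Lyz2 was lower (-0.41, at 4.29 times). The 12 had summed scaled intensities of 55.4 on CSE-WT and 71.5 on CSE-KO. The largest part came from Itgam (12714 of 28751 units on CSE-WT and 17478 of 38601 on CSE-KO), whose 3 probes ran from 0.081 to 0.40. Pan-leukocyte markers were higher in 5 of 6, with sums of 4.12 and 5.73. T and NK cell markers were measured for 6 of 12 and were higher in 5, with a median of 0.10. Their sums of 60.6 and 61.4 came mostly from Cd3e and Cd4 (20467 and 7362 of 31454 units on CSE-WT). Cd3d, Cd3g, Cd8a, Cd8b1, Klrk1 and Gzmb were not well above background on both arrays. B cell markers were measured for 2 of 4, both lower by less than 1 spot SD. Endothelial markers were higher in 4 of 5, with sums of 72.1 and 73.7. Fibroblast markers were higher in 3 of 3 measured, with sums of 0.583 and 1.16. For each of these cell types the count of higher markers stands against the 48.7% of all measured genes. The part of these cells in the B2m, Tap1, class II and interferon-stimulated readings was not tested.

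On chromosome 17 the class I processing genes sit among class II genes, so both sets can be read along 1 stretch. Within 300 kb of the Tap1 probe, 7 of 7 class II genes were higher, against 48.7% of all measured genes. They ran from 0.12 (H2-Ob) to 0.44 (H2-Oa), with a median of 0.30. Both ends of that range are dim probes, H2-Ob at 0.301 and H2-Oa at 1.28 times the spot SD. The 6 class I members in the same stretch ran from -0.062 (Psmb9) to 0.18 (Tap1), with 3 higher. Another 23 measured genes there had a median of 0.0017, with 12 higher. Psmb9, Tap1, Psmb8 and Tap2, whose probes lie from -11.7 to 22.3 kb, are flanked by H2-DMb1 (0.30) at -33.7 kb and H2-Ob at 49.8 kb.

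**Figure D4:**
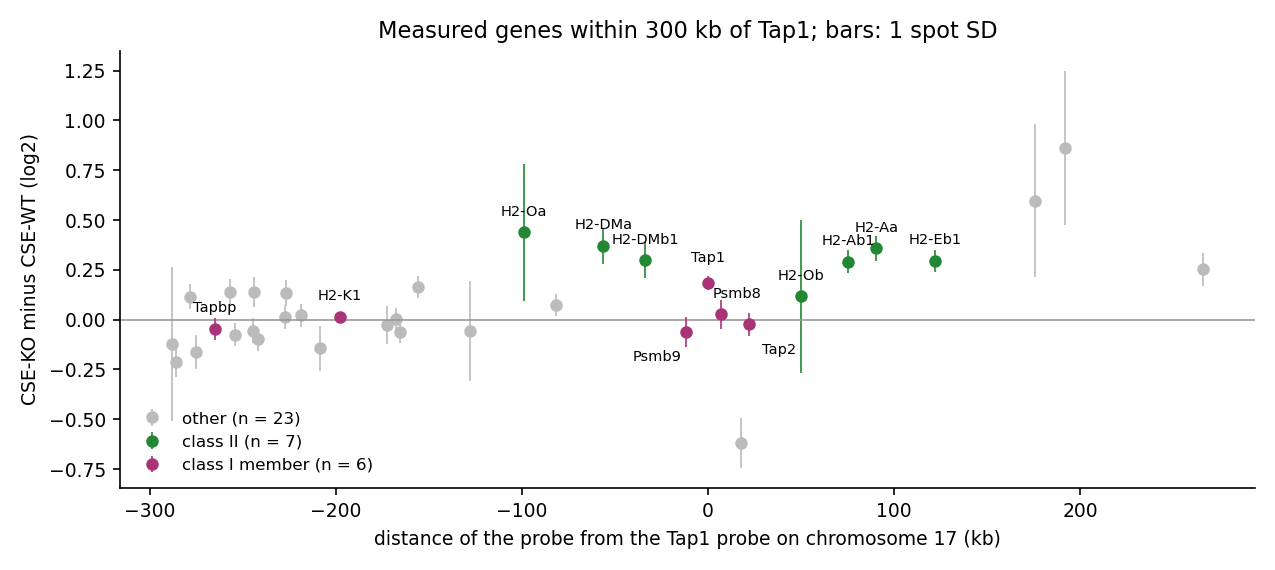
Log2 difference of each measured gene within 300 kb of Tap1 on chromosome 17, against the distance of its probe from the Tap1 probe in kb, with bars of 1 spot SD. The class II genes lie at 0.12 to 0.44, from -98.8 to 122 kb. The 4 class I members between them (Psmb9, Tap1, Psmb8 and Tap2) and the 2 outside that span (Tapbp and H2-K1) lie at -0.062 to 0.18.

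How far the small class I differences rest on the processing is shown by the plot of each gene's value under every setting. B2m, Tap1 and H2-K1 were higher and Psmb9 was lower under all 11 alternatives, and the other 6 genes changed sign under at least 1 of them. Agreement under several alternatives was fixed in advance. No member spot was an outlier, no chosen member probe lay in a patch, and each was already measured. The mean of probes could not move genes with a single measured probe. H2-K1 stayed near 0 as reported (0.013, at 0.740 times the spot SD), and its second probe gave -0.0048. No member passed 2-fold under any of these settings.

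**Figure D5:**
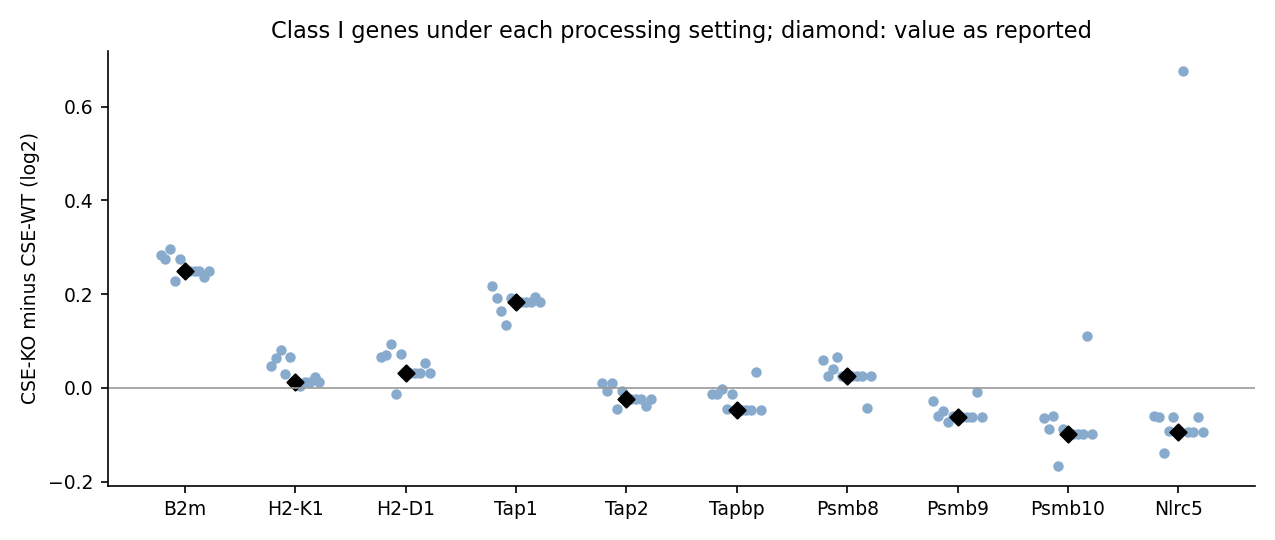
Log2 difference (CSE-KO minus CSE-WT) of each of the 10 class I genes, with the value as reported (diamond) and the values under 11 processing alternatives (dots). B2m (0.23 to 0.30) and Tap1 (0.13 to 0.22) stay above 0, and the mean over both Nlrc5 probes (0.68) stands apart from its other values.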

How the data were processed

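Each of the 2 samples was hybridised to 1 one-colour Cy3 array. Per the file headers, the authors' intensity values were quantified with Agilent Feature Extraction 10.7.1.1 with spatial and multiplicative detrending on and local background subtraction off. Version 9.5.1.1 stands in the submitters' processing notes instead. Probe coordinates are those of the files (mm9). The deposited table of intensity values served as an alternative, and how it was normalized is not stated.

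Outlier spots were left out (139 of 59305 gene spots on CSE-WT, 169 on CSE-KO, none of a member), and none was saturated. Spots of a probe were averaged on the log2 scale. Well above background were 57.0% and 59.6% of 55681 probes. Listed genes were matched by the name in the files, with 1 through an older symbol and 1 unmatched.

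With 1 array per genotype, the 2-fold rule and the spot SD took the place of a test, and having 2 arrays limits precision. The members and lists were chosen with earlier results of these data known. Named are all members and, per list, up to 4 genes of largest absolute difference; H2-T23, Gm11127, LOC100044874, Psmb6, Psmb7, Jak2, Irf1, Ciita, Lyz2, Gbp2, Ifih1, the genes flanking Tap1, Gm15821, Btnl2 and Btnl3 were added after their values were seen. The functions were tested on simulated data. Tools were R 4.3.3 with limma 3.58.1 (normexp with an offset of 50, quantile, cyclic loess), Python 3.11.15, numpy 2.4.6 and pandas 2.3.3.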

Additional observations from a re-analysis of the deposited data

How the results depend on the processing

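The median difference of the 10 class I genes lay between -0.029 (normexp) and 0.029 (arrays scaled to their medians) over 11 alternatives, its sign positive under 6 of the 12 settings, the reported one included. The number of higher genes lay between 4 and 6, and none was 2-fold higher under any setting. The alternatives were another scaling (median, quantile, cyclic loess), normexp, the authors' deposited table, no filter on dim probes, the mean of probes, outlier spots kept, and 3 treatments of local patches of the slide. Of these, leaving out patches judged by the nearest spots was chosen after seeing the data. Single genes moved by more than their spot SD in 11 cases, 4 of them for H2-K1, which reached 0.081 under cyclic loess. No paired analysis was possible because each genotype has 1 array. Dim probes limit Nlrc5, with a spot SD of 0.31.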

Other observations

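Along the stretch around Tap1, some readings belonged neither to class I nor to class II. Gm15821, 17.6 kb from the Tap1 probe and between Psmb8 and Tap2, was lower in CSE-KO by 0.62 log2 units (scaled level -1.05 on CSE-WT and -1.67 on CSE-KO). The butyrophilin-like genes Btnl2 and Btnl3, at 176 and 192 kb, gave 0.60 and 0.86, both from dim probes and within 3 times the spot SD.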
